A study of Homo sapiens with 34 samples.

Results

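Cytochrome P450 genes were taken as every probe of the deposited expression table whose gene symbol starts with CYP and a digit, without CYP51A1 and without symbols marked as pseudogenes. This gave 82 probes of 53 genes, out of 47230 probes and 20046 genes. The intensities are low for many of them. In all, 49 probes of 39 genes exceeded the background on both arrays of at least 1 group. Results are given for these 39, each gene read from its brightest such probe. The other 14 were CYP2A6, CYP2A7, CYP2A13, CYP2B6, CYP3A4, CYP4A22, CYP4F8, CYP4X1, CYP4Z1, CYP39A1, CYP46A1, CYP11B1, CYP11B2 and the non-coding antisense gene CYP1B1-AS1, and nothing is said here of how they responded. Just inside this limit, on the lower array of the best group, lay CYP7B1 (6.99) and CYP7A1 (7.01), and just outside lay CYP46A1 (6.95) and CYP3A4 (6.90). A gene that entered through 1 group alone had to be higher there, so counts over the 39 are descriptions. The 11 genes above background in no untreated line entered through treated groups, and this limit favoured their higher calls against untreated cells. CYP2D7, a transcribed pseudogene in RefSeq whose symbol lacks the pseudogene ending, is a member by the rule.

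P450 enzymes are heme proteins that insert an oxygen atom into their substrate, most of them with electrons from cytochrome P450 reductase in the endoplasmic reticulum and some with electrons from ferredoxin in mitochondria. The CYP1, CYP2 and CYP3 families oxidise drugs and other foreign compounds and are abundant in the adult liver. Other families make and break down bile acids, steroid hormones, fatty acid mediators, vitamin D and retinoic acid, and hepatocytes in culture and liver tumours are known for losing many of them.

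HepG2, SNU398 and SNU475 are established human liver cancer lines. Treated cells received 100 nM SGI-110, a dinucleotide prodrug of decitabine that inhibits DNA methyltransferases, in 3 daily doses and were harvested at days 3, 10, 17 and 24 in all 3 lines and also at days 31 and 56 in SNU475. Untreated cells of each line, harvested before treatment, are the reference, and each of the 17 groups holds 2 Illumina arrays of total RNA, 34 in all. No untreated cells of a later day were analysed, so the drug and the time in culture cannot be told apart, and in these bulk samples neither can fewer cells of a kind and less RNA per cell. All days of a line share its 2 untreated arrays. Whether a group's 2 arrays stand for separate cultures is not stated in the labels. The p-values therefore set each difference against the spread between these arrays alone, which may be technical, and the number of arrays limits the precision.

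Levels are normalized log2 intensities and the background limit is 6.974. A group is above background where both of its arrays exceed that limit, and below it otherwise. A change is a difference of log2 means with the standard error of the fit (n = 2 arrays a group). Calls are those of limma with an adjusted p under 0.05 over the 20999 probes tested. With 1 group not above background the change is given as a bound ("at least N-fold"), and with neither above it no size is given. Of 12 hepatocyte markers, 12 were above background in untreated HepG2 (mean level 14.67), 3 in SNU398 (mean 6.79, AFP not among them) and 4 in SNU475 (mean 6.97). Of the listed markers of other cell types 11 were measured, and PTPRC, CD3E and CDH5 passed the limit in no group. The arrays fall into 3 sets with their own medians of the deposited intensities, which the labels do not mention: HepG2 with untreated SNU398, treated SNU398 with SNU475 untreated and at day 3, and SNU475 from day 10 on. HepG2 against its untreated cells, untreated HepG2 against untreated SNU398, SNU475 at day 3, and comparisons between later days of a line lie within 1 set. SNU398 against its untreated cells, and SNU475 from day 10 on against its untreated cells, run across sets, and there set and treatment cannot be told apart. Untreated HepG2 against untreated SNU475 also runs across sets, and there set and line cannot be told apart. A change called by 1 fit can rest on 1 array: leaving out a single array ended 64 of 176 calls against untreated cells, but 2 of the 85 with a change of at least 0.8. Related P450 genes are similar in sequence, and a probe of the CYP3A, CYP4F, CYP2D or CYP21A families may also bind a relative.

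Untreated cells differed in which P450 genes they expressed. Of the 39 genes, 24 were above background in HepG2, 14 in SNU398 and 14 in SNU475. The 6 detected in all 3 lines were CYP11A1, CYP20A1, CYP26A1, CYP26B1, CYP27A1 and CYP2U1, and 11 were detected in none. Among these 11 were CYP1A1, CYP1A2, CYP2C8, CYP17A1 and CYP7A1. In untreated HepG2, limma called 15 genes higher and 6 lower than in SNU398 (background 56.5% of probes), and 16 higher and 6 lower than in SNU475, across array sets (background 56.8%). The median difference was 0.17 and 0.20, beside -0.02 and -0.01 over all probes.

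CYP27A1, the mitochondrial sterol hydroxylase of bile acid synthesis, was among the 6 genes detected in all lines and read 12.70 and 12.68 in HepG2, 8.53 and 8.34 in SNU398 and 10.46 and 10.46 in SNU475. The difference was 4.26 ± 0.14 against SNU398 (adjusted p = 4.46e-21) and 2.23 ± 0.14 against SNU475 (adjusted p = 2.76e-14). The arrays of the 3 lines did not overlap. CYP2J2, which makes epoxides of arachidonic acid, stood at 9.95 and 9.90 in HepG2, and at 6.78 and 6.57 in SNU398 and 6.55 and 6.91 in SNU475, neither above background. It was at least 7.72-fold higher in HepG2 than in either line (adjusted p = 1.5e-18 and 2.38e-18). CYP24A1, which inactivates vitamin D, was above background in HepG2 alone, with 8.95 and 9.03 against 5.82 and 5.93 in SNU398 (at least 4.05-fold, adjusted p = 3.7e-16). Lower in HepG2 were CYP1B1, an extrahepatic relative of CYP1A1, and CYP2R1, the vitamin D hydroxylase of the liver. CYP1B1 read 6.77 and 6.58 in HepG2, 8.44 and 8.48 in SNU398 and 9.42 and 9.78 in SNU475. It was at least 2.81-fold and at least 6.17-fold lower in HepG2 (adjusted p = 7.33e-12 and 7.39e-17). CYP2R1 read 6.62 and 6.59 in HepG2, 9.73 and 9.83 in SNU398 and 8.70 and 8.70 in SNU475 (at least 6.99-fold and at least 3.31-fold lower, adjusted p = 5.68e-18 and 1.18e-13). The retinoic acid hydroxylase CYP26B1 gave 7.59 and 7.04 in HepG2, 9.52 and 9.60 in SNU398 and 8.93 and 8.54 in SNU475. The difference was -2.24 ± 0.15 and -1.42 ± 0.15 (adjusted p = 2e-13 and 4.35e-09). Levels of CYP26A1, its close relative, were 7.09 and 7.35 in HepG2, 8.20 and 7.93 in SNU398 and 8.77 and 8.86 in SNU475 (-0.84 ± 0.13 and -1.59 ± 0.13), again lower in HepG2. A second CYP26A1 probe differed by -0.16 and -0.02 with no call, so this difference rests on the brighter probe. CYP20A1, an enzyme with no settled substrate, had 10.56 and 10.74 in HepG2, 10.79 and 10.86 in SNU398 and 10.13 and 10.17 in SNU475. It was called against SNU475 (0.50 ± 0.15, adjusted p = 0.00675) but not against SNU398 (-0.18 ± 0.15). CYP11A1, which starts steroid synthesis from cholesterol, lay at 7.50 and 7.60 in HepG2, 7.28 and 7.48 in SNU398 and 7.35 and 7.60 in SNU475. It differed by 0.17 ± 0.14 against SNU398 and 0.08 ± 0.14 against SNU475, with no call. CYP2U1, a fatty acid hydroxylase, lay at 7.52 and 6.97 in HepG2, 7.23 and 7.14 in SNU398 and 8.22 and 8.05 in SNU475. It was lower in HepG2 than in SNU475 (-0.88 ± 0.15, adjusted p = 1.13e-05).

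In HepG2 after SGI-110 more P450 genes were called higher than lower on every day. Limma called 10 higher and 2 lower at day 3 (background 13.3% of probes in either direction), 19 and 4 at day 10 (background 31.0%), 22 and 3 at day 17 (background 24.3%) and 18 and 4 at day 24 (background 24.2%). Higher calls alone made up 7.16%, 16.4%, 12.9% and 12.2% of all probes on these days, and lower calls 6.09%, 14.6%, 11.3% and 11.9%. The median change of the 39 genes was 0.21, 0.39, 0.54 and 0.42, beside -0.01, 0.00, -0.01 and -0.02 over all probes. Genes called higher on all 4 days were CYP27B1, CYP2R1, CYP3A43, CYP3A5, CYP3A7, CYP4F12, CYP4F3 and CYP8B1, and CYP2S1 was called lower on all 4. At least 2-fold calls numbered 3, 10, 9 and 9 upward (background 1.19%, 3.07%, 2.90% and 2.42%). Downward they numbered 0, 1, 1 and 1 (background 0.376%, 2.65%, 1.14% and 1.11%), the 1 being CYP2S1. Called genes with neither group above background were CYP2C8, CYP4A11 and CYP7A1 at day 17 and CYP17A1 at day 24, and none of these 4 calls held without each array. CYP2C8 was lost without untreated replicate 1 (adjusted p = 0.417) or day 17 replicate 2 (adjusted p = 0.416), and CYP7A1 without untreated replicate 2 (adjusted p = 0.12) or day 17 replicate 2 (adjusted p = 0.0771). The 12 hepatocyte markers had a mean level of 14.71 to 14.93 on the treated days, against 14.67 untreated. Of the 11 markers of other cell types, 6 to 8 were above background on the treated days, against 5 untreated, with mean levels of 9.08 to 9.38 against 9.04. Of these 11, 3, 5, 5 and 2 were called higher and 1, 1, 1 and 2 lower at days 3, 10, 17 and 24. The endothelial gene VWF was higher on all 4 days, at least 2.79-fold at day 10, and the duct keratin KRT19 was lower on all 4, by -0.95 ± 0.12 at day 10 and -1.51 ± 0.12 at day 24. Their part in the P450 results was not tested.

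**Figure D1:**
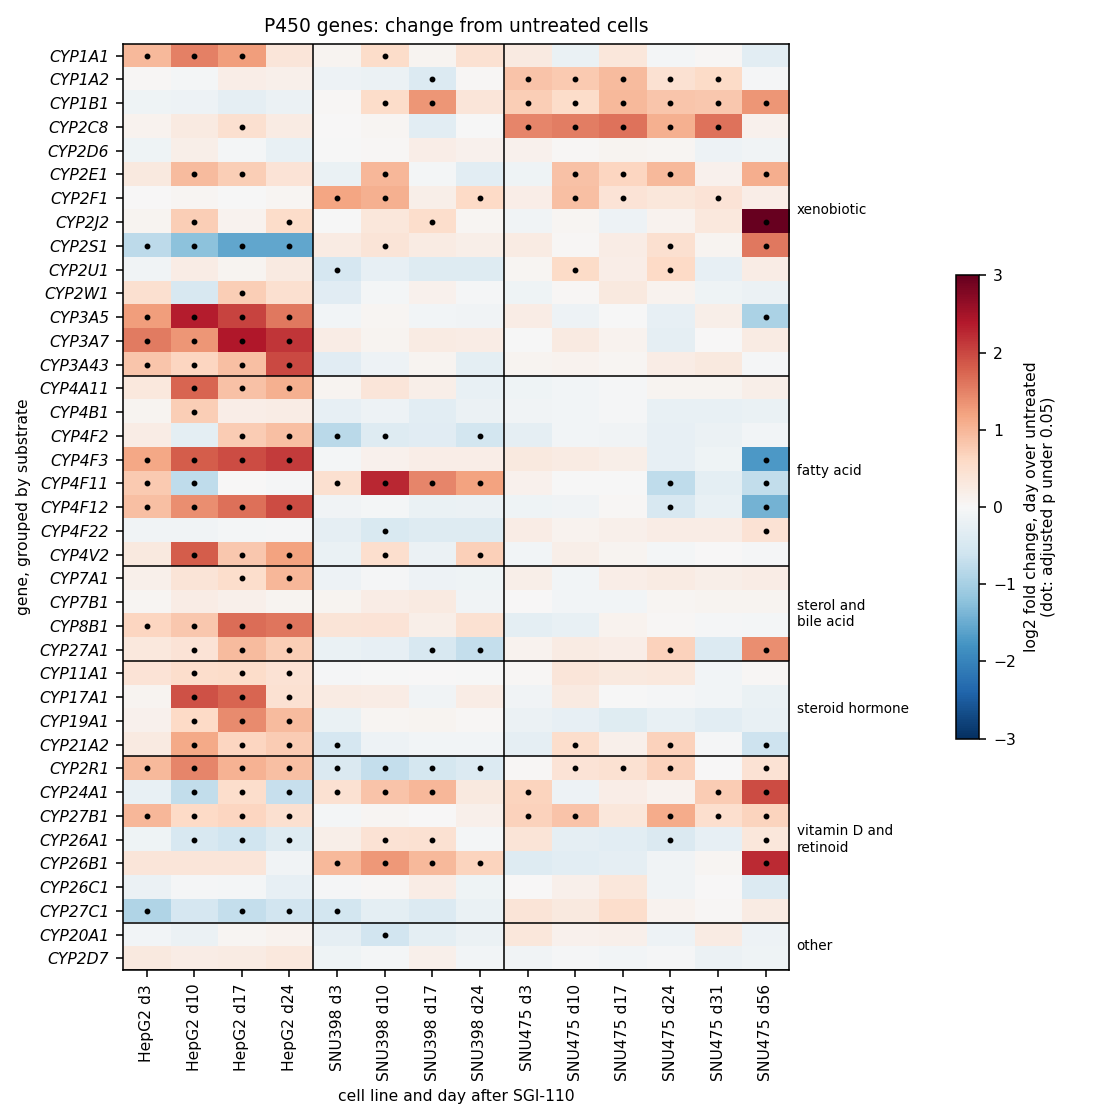
Log2 fold change of each of the 39 P450 genes (down the page, grouped by substrate) on each treated day over untreated cells of the same line (across), with a dot where the adjusted p was under 0.05 (colours are fitted values, also where groups were below background). CYP3A5, CYP3A7, CYP4F3 and CYP4F12 are red on all 4 HepG2 days, and CYP2J2 is deep red in SNU475 at day 56.

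Among the foreign-compound enzymes of HepG2, 4, 6, 7 and 4 of 14 were higher and 1 was lower at days 3, 10, 17 and 24, and the others did not pass (medians 0.10, 0.25, 0.34 and 0.32). The 14 include CYP2J2 and CYP2U1, described above by their fatty acid substrates, and CYP2J2 was among the higher calls at days 10 and 24. Over all probes 7.16%, 16.4%, 12.9% and 12.2% were called higher on these days and 6.09%, 14.6%, 11.3% and 11.9% lower. Each higher count includes CYP3A43, whose admission favoured its higher calls. Those of days 3, 10 and 17 also include CYP1A1, and that of day 17 CYP2C8. Treated groups alone admitted both, which likewise favoured their higher calls. The 3 CYP3A genes were called higher on all 4 days. They are neighbours on chromosome 7 and encode main drug oxidases of the adult and fetal liver. CYP3A5, an adult form, read 9.05 and 8.87 untreated, 10.14 and 10.26 at day 3, 11.30 and 11.33 at day 10, 11.05 and 10.90 at day 17 and 10.56 and 10.51 at day 24. Its arrays on every treated day lay above both untreated arrays. The change was 1.24 ± 0.15, 2.36 ± 0.15, 2.02 ± 0.15 and 1.58 ± 0.15 (adjusted p = 2.54e-13 at day 10, a 5.13-fold difference). CYP3A7, the form of the fetal liver, read 9.003 and 8.76 untreated, 10.40 and 10.48 at day 3, 10.16 and 10.25 at day 10, 11.38 and 11.19 at day 17 and 11.15 and 10.88 at day 24. It rose by 1.56 ± 0.14, 1.32 ± 0.14, 2.40 ± 0.14 and 2.13 ± 0.14 and was highest at day 17 (adjusted p = 4.18e-14). CYP3A43, a minor member, read 6.83 and 6.94 untreated, 7.65 and 7.78 at day 3, 7.57 and 7.51 at day 10, 7.65 and 7.90 at day 17 and 8.80 and 8.93 at day 24. Untreated arrays were not above background. It was at least 1.67-fold, at least 1.48-fold, at least 1.75-fold and at least 3.71-fold higher. Treated HepG2 groups alone admitted CYP3A43, so no test is read from these differences. Its second probe changed by 0.85, 0.26, 0.77 and 1.31, without a call at day 10. CYP3A4, which lies between CYP3A7 and CYP3A43, did not pass the background limit. The genes flanking the cluster, ZSCAN25 and ZNF655 on one side and TRIM4 and GJC3 on the other, changed by 0.23, -0.16, 0.38 and 0.06 at day 10, and TRIM4 alone was called there (adjusted p = 0.0411).

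The sequence upstream of CYP3A5 and CYP3A7 is shown because these neighbours were both called higher on all 4 days and SGI-110 acts on the methylation of CG sites (methylation was not analysed here). Each run is the 250 bases before the annotated transcript start in RefSeq, GRCh38.p14, minus strand, 5′ to 3′, with every CG in capitals. The windows are chr7:99679997-99680246 for CYP3A5, with 2 CG, and chr7:99735197-99735446 for CYP3A7, with 3.
CYP3A5: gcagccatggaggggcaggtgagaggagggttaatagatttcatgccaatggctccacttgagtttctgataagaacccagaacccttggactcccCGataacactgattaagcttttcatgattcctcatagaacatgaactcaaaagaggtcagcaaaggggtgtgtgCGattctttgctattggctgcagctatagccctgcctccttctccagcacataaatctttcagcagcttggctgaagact
CYP3A7: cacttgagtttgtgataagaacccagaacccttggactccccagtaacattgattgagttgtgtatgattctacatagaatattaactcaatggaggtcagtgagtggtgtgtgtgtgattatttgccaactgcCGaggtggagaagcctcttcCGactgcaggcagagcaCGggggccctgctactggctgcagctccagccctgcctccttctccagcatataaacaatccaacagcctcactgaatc
Over windows of 300 bases, which add the first 50 transcribed bases, CYP3A43 holds 2 CG, and the median of 35116 windows of all genes in the table is 14.

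**Figure D2:**
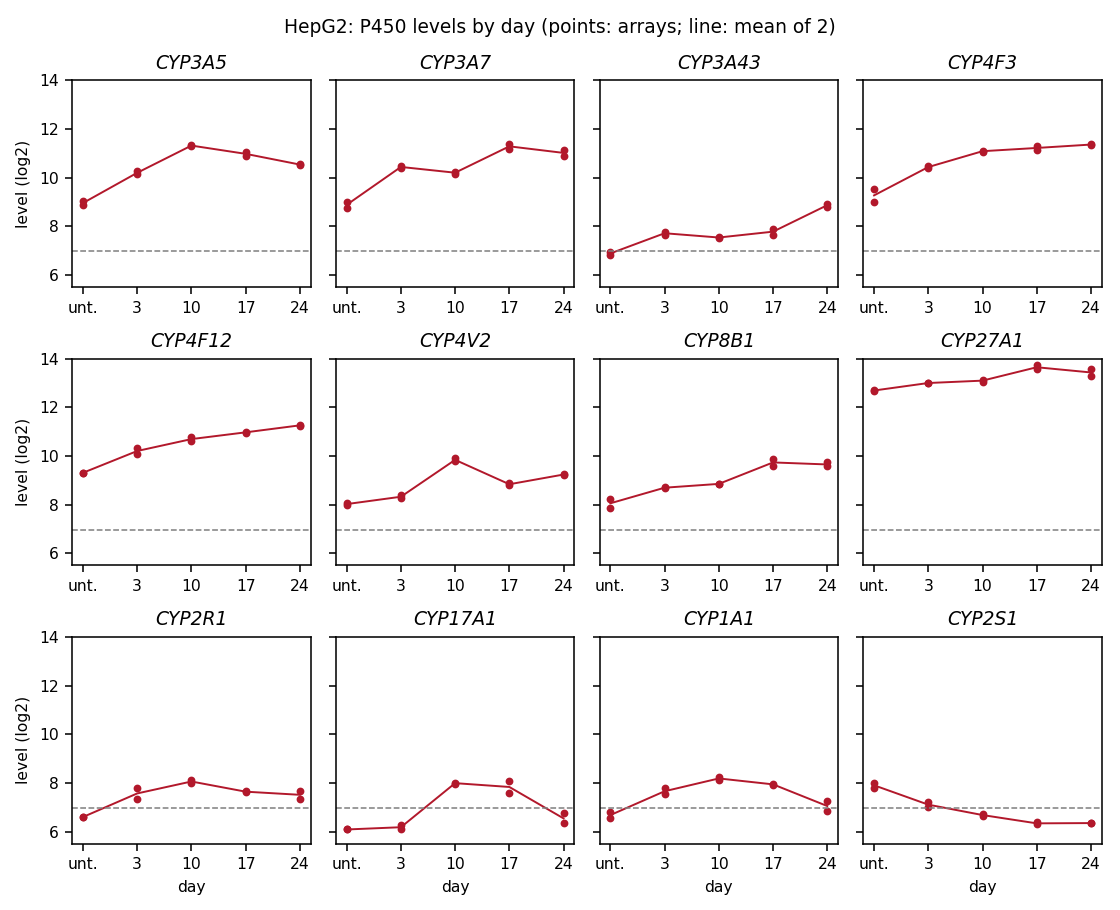
Normalized log2 level of 12 P450 genes in HepG2 by day, untreated at the left (points are the 2 arrays of a group, lines join their means, and the dashed line is the background limit of 6.974). CYP3A5, CYP3A7, CYP4F3 and CYP4F12 lie above their untreated level on every treated day, CYP17A1 and CYP1A1 are high at days 10 and 17 and lower again at day 24, and CYP2S1 falls below the limit.

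CYP1A1, which oxidises polycyclic aromatic hydrocarbons and is induced through the aryl hydrocarbon receptor, read 6.56 and 6.80 untreated, 7.53 and 7.79 at day 3, 8.12 and 8.25 at day 10, 7.91 and 7.97 at day 17 and 6.84 and 7.26 at day 24 in HepG2. The untreated and day 24 groups were not above background. CYP1A1 was at least 1.61-fold, at least 2.32-fold and at least 1.96-fold higher at days 3, 10 and 17, without a call at day 24 (adjusted p = 0.212). Treated groups alone admitted it, which favoured its higher calls, so no test is read from these differences. The core of the element bound by that receptor, GCGTG on either strand, is shown in capitals in the 250 bases before the start of CYP1A1 (RefSeq, GRCh38.p14, chr15:74725529-74725778, minus strand, 5′ to 3′).
CYP1A1: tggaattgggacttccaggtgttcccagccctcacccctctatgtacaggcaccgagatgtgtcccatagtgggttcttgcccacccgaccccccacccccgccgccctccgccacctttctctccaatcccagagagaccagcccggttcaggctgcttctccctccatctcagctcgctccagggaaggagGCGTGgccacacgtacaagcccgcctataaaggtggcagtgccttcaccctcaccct
There is 1 such core in it, and 36.5% of all 300-base windows hold at least 1. The receptor gene AHR read 13.39 and 13.49 in HepG2 at day 10 against 12.87 and 12.64 untreated (0.69 ± 0.14, adjusted p = 0.000296), while its partner ARNT changed by 0.11 ± 0.17 and was not called there. CYP1A2 and CYP1B1, which share this receptor, were above background in HepG2 on no day.

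CYP2S1, an enzyme of epithelia outside the liver, moved the other way. It read 8.01 and 7.80 untreated, 6.99 and 7.22 at day 3, 6.63 and 6.73 at day 10, 6.38 and 6.30 at day 17 and 6.34 and 6.37 at day 24. The groups from day 10 on were below background. The change at day 3 was -0.80 ± 0.14 (adjusted p = 0.000227), and from day 10 on CYP2S1 was at least 1.91-fold lower (adjusted p = 8.36e-08, 1.28e-09 and 1.79e-09). A second, dimmer CYP2S1 probe changed by 0.02, -0.31, -0.30 and -0.16 with no call, so the drop rests on 1 of its 2 probes. Its sequence is shown as the one gene called lower on all 4 days, and it holds 23 CG in the 250 bases before the start (RefSeq, GRCh38.p14, chr19:41192969-41193218, plus strand, 5′ to 3′, CG in capitals).
CYP2S1: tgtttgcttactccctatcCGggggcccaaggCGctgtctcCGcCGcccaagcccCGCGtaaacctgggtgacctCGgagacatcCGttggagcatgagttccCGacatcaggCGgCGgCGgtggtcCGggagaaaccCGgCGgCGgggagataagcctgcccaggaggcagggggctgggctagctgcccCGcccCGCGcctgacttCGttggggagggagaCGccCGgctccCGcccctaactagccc
Of the other CYP2 genes in HepG2, the ethanol oxidase CYP2E1 read 7.32 and 7.53 at day 10 against 6.31 and 6.65 untreated (at least 1.37-fold, adjusted p = 3.84e-05). CYP2J2 read 9.95 and 9.90 untreated, 9.84 and 10.17 at day 3, 10.72 and 10.62 at day 10, 9.95 and 10.12 at day 17 and 10.44 and 10.49 at day 24. It was called at day 10 (0.75 ± 0.14, adjusted p = 8.5e-05) and day 24 (0.55 ± 0.14) and none at days 3 and 17. CYP2W1, known from fetal gut and colon tumours, was called at day 17 alone (0.74 ± 0.21), and not without day 17 replicate 1 (0.56, adjusted p = 0.134).

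Fatty acid hydroxylases of HepG2 were called higher in 3, 5, 5 and 5 of 8 genes at days 3, 10, 17 and 24, with 1 lower at day 10 and medians of 0.31, 1.06, 0.79 and 0.98. Over all probes 7.16%, 16.4%, 12.9% and 12.2% were called higher on these days. The counts from day 10 on include CYP4A11, and that of day 10 also CYP4B1. Both were admitted by treated HepG2 groups alone, which favoured their higher calls. CYP4F3, which inactivates leukotriene B by hydroxylation, read 9.01 and 9.53 untreated, 10.46 and 10.41 at day 3, 11.11 and 11.07 at day 10, 11.29 and 11.14 at day 17 and 11.38 and 11.34 at day 24. The change was 1.16 ± 0.17, 1.82 ± 0.17, 1.95 ± 0.17 and 2.09 ± 0.17 (adjusted p = 1.37e-10 at day 24). A second probe gave 0.64, 1.37, 1.32 and 0.93, all called. CYP4F12, which hydroxylates fatty acids and some drugs, read 9.32 and 9.30 untreated, 10.33 and 10.08 at day 3, 10.63 and 10.76 at day 10, 10.95 and 10.99 at day 17 and 11.23 and 11.29 at day 24. It rose by 0.90 ± 0.15, 1.38 ± 0.15, 1.66 ± 0.15 and 1.95 ± 0.15. The mean of each day lay above that of the day before it. CYP4F2, the vitamin K oxidase of the same cluster on chromosome 19, was called at day 17 (0.77 ± 0.15) and day 24 (0.90 ± 0.15), while a second probe gave 0.45 and 0.28 with no call. CYP4F11, next to CYP4F2, read 9.81 and 9.94 at day 3 and 8.20 and 8.47 at day 10 against 9.09 and 9.12 untreated. It was called higher at day 3 (0.78 ± 0.12) and lower at day 10 (-0.77 ± 0.12, adjusted p = 7.44e-06), with no call later. CYP4F22, an enzyme of skin lipids at the other end of the cluster, was not above background in HepG2. Of the flanking genes, PGLYRP2, a hepatic peptidoglycan amidase, changed by 1.73, 1.76, 3.06 and 2.80 (adjusted p = 1.11e-14 at day 17), and RASAL3 was called on no day. On the far side TPM4 was called lower at day 17 (-0.41) and day 24 (-0.37) and RAB8A on no day.

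Outside that cluster CYP4V2, a fatty acid hydroxylase mutated in Bietti crystalline dystrophy, read 7.98 and 8.06 untreated, 8.27 and 8.38 at day 3, 9.78 and 9.90 at day 10, 8.87 and 8.81 at day 17 and 9.22 and 9.25 at day 24 in HepG2. It was called at day 10 (1.82 ± 0.15, adjusted p = 8.09e-11), day 17 (0.82 ± 0.15) and day 24 (1.21 ± 0.15), and day 10 was the highest. CYP4A11, the main omega-hydroxylase of medium-chain fatty acids in liver and kidney, read 6.32 and 6.05 untreated, 6.47 and 6.53 at day 3, 7.78 and 8.07 at day 10, 6.78 and 7.34 at day 17 and 7.29 and 7.19 at day 24. It was above background at days 10 and 24 alone, at least 1.93-fold and at least 1.20-fold higher than untreated. Those groups alone of the 17 admitted it, so no test is read from these differences. At day 17 it was called with neither group above background, and not without day 17 replicate 2 (adjusted p = 0.0689). CYP4B1 was above background at day 10 of HepG2 alone among the 17 groups (at least 1.44-fold higher), so the limit that admitted it set this direction and no test is read from it.

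In the bile acid pathway, 1, 2, 3 and 3 of 4 genes were called higher in HepG2 at days 3, 10, 17 and 24 and none lower. Over all probes 7.16%, 16.4%, 12.9% and 12.2% were called higher on these days. The counts at days 17 and 24 include CYP7A1, whose admission favoured its higher calls. CYP8B1, the sterol hydroxylase that directs synthesis to cholic acid, read 7.86 and 8.25 untreated, 8.69 and 8.71 at day 3, 8.85 and 8.85 at day 10, 9.89 and 9.57 at day 17 and 9.57 and 9.73 at day 24. The change was 0.64 ± 0.19, 0.80 ± 0.19, 1.68 ± 0.19 and 1.60 ± 0.19 (adjusted p = 5.79e-08 at day 17). The day 3 call was lost without untreated replicate 1 (0.44, adjusted p = 0.253), day 3 replicate 1 (0.65, adjusted p = 0.0867) or day 3 replicate 2 (0.63, adjusted p = 0.0847), and the day 10 call without untreated replicate 1 (0.60, adjusted p = 0.0528). CYP27A1 read 13.57 and 13.72 at day 17 and 13.57 and 13.30 at day 24 against 12.70 and 12.68 untreated (0.96 ± 0.14 and 0.74 ± 0.14, adjusted p = 5.79e-06 and 0.000206). Its day 10 call (0.41 ± 0.14) was lost without untreated replicate 1 (0.41, adjusted p = 0.0923), untreated replicate 2 (0.40, adjusted p = 0.1), day 10 replicate 1 (0.37, adjusted p = 0.139) or day 10 replicate 2 (0.44, adjusted p = 0.0679). CYP7A1, the rate-limiting enzyme of bile acid synthesis, read 7.48 and 7.01 at day 24 against 6.35 and 6.14 untreated (at least 1.21-fold). Day 24 of HepG2 is the 1 group of 17 that admitted it, so no test is read from this difference. CYP7B1 was called in no comparison with untreated cells in any line.

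All 4 measured steroid hormone enzymes were called higher in HepG2 at days 10, 17 and 24, with medians of 0.86, 1.02 and 0.61, and none at day 3. Over all probes 16.4%, 12.9% and 12.2% were called higher at days 10, 17 and 24. The 4 include CYP17A1, whose admission favoured its higher calls. CYP17A1, which makes androgen and cortisol precursors, read 6.09 and 6.09 untreated, 6.26 and 6.11 at day 3, 7.97 and 8.02 at day 10, 8.07 and 7.60 at day 17 and 6.34 and 6.75 at day 24. It was above background at days 10 and 17, at least 2.03-fold and at least 1.82-fold higher than untreated. Those groups alone of the 17 admitted it, so no test is read from these differences. At day 24 it was below background again, and the call was lost without untreated replicate 1 (adjusted p = 0.134), untreated replicate 2 (adjusted p = 0.133) or day 24 replicate 2 (adjusted p = 0.44). CYP19A1, aromatase, read 7.0001 and 7.38 untreated, 7.27 and 7.35 at day 3, 7.81 and 7.75 at day 10, 8.64 and 8.56 at day 17 and 8.13 and 8.15 at day 24. Its changes were 0.59 ± 0.18, 1.41 ± 0.18 and 0.95 ± 0.18 at days 10, 17 and 24 (adjusted p = 4.06e-07 at day 17). The 2 further probes gave 0.39 and 1.97 at day 17, the first of them with no call. The day 10 call was lost without untreated replicate 1 (0.40, adjusted p = 0.189) or day 10 replicate 1 (0.56, adjusted p = 0.0656). CYP21A2, the adrenal steroid hydroxylase, read 9.48 and 9.55 at day 10 against 8.44 and 8.32 untreated (1.13 ± 0.16, adjusted p = 2.74e-06). Its day 17 call (0.64 ± 0.16) was lost without day 17 replicate 1 (0.57, adjusted p = 0.0515). CYP11A1 changed by 0.52 ± 0.14, 0.55 ± 0.14 and 0.43 ± 0.14 on those days. The last was not called without untreated replicate 1 (0.38, adjusted p = 0.126), untreated replicate 2 (0.47, adjusted p = 0.0516) or day 24 replicate 1 (0.35, adjusted p = 0.166).

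Vitamin D and retinoid enzymes moved in both directions in HepG2, 2 higher and 1 lower of 7 at day 3, 2 and 2 at day 10, 3 and 2 at day 17 and 2 and 3 at day 24. Over all probes 7.16%, 16.4%, 12.9% and 12.2% were called higher on these days and 6.09%, 14.6%, 11.3% and 11.9% lower. CYP2R1, which makes the circulating form of vitamin D, read 6.62 and 6.59 untreated, 7.79 and 7.35 at day 3, 7.98 and 8.14 at day 10, 7.63 and 7.65 at day 17 and 7.67 and 7.36 at day 24. Both untreated arrays were below background, and it was at least 1.51-fold, at least 2.12-fold, at least 1.59-fold and at least 1.45-fold higher (adjusted p = 2.1e-09 at day 10). CYP27B1, which activates that form, read 8.35 and 8.66 untreated, 9.44 and 9.54 at day 3, 9.17 and 9.04 at day 10, 9.01 and 9.30 at day 17 and 8.86 and 9.12 at day 24. Its change was 0.98 ± 0.17 at day 3 (adjusted p = 9.19e-05) and 0.60 ± 0.17, 0.65 ± 0.17 and 0.48 ± 0.17 later. The day 10 call was lost without untreated replicate 1 (0.44, adjusted p = 0.113) or day 10 replicate 1 (0.54, adjusted p = 0.0588). That of day 17 was lost without untreated replicate 1 (0.49, adjusted p = 0.0882) or day 17 replicate 2 (0.51, adjusted p = 0.0781), and that of day 24 without untreated replicate 1 (0.33, adjusted p = 0.296) or day 24 replicate 2 (0.35, adjusted p = 0.264). CYP24A1, which breaks it down, read 8.95 and 9.03 untreated, 8.72 and 8.82 at day 3, 8.24 and 8.26 at day 10, 9.56 and 9.47 at day 17 and 8.19 and 8.39 at day 24. It was called lower at day 10 (-0.74 ± 0.16) and day 24 (-0.70 ± 0.16) and higher at day 17 (0.52 ± 0.16). The day 17 call was lost without untreated replicate 1 (0.48, adjusted p = 0.107), untreated replicate 2 (0.56, adjusted p = 0.0573), day 17 replicate 1 (0.47, adjusted p = 0.121) or day 17 replicate 2 (0.56, adjusted p = 0.0523). CYP26A1, which clears retinoic acid, fell below background from day 10 on (6.65 and 6.82 at day 10 against 7.09 and 7.35 untreated). The call was lost without untreated replicate 2 (adjusted p = 0.0967) or day 10 replicate 1 (adjusted p = 0.0694). The day 24 call was lost without untreated replicate 2 (adjusted p = 0.285) or day 24 replicate 1 (adjusted p = 0.222). At day 17 CYP26A1 was at least 1.19-fold lower (adjusted p = 0.000842). The second probe changed by 0.48 at day 10 and by 0.51 at day 17 with no call. CYP26B1 was called on no day in HepG2. CYP27C1, a retinoid desaturase, was at least 1.56-fold lower at day 3 (adjusted p = 0.00153), a call that did not hold without day 3 replicate 1. It was also called lower at day 17 (at least 1.61-fold, adjusted p = 0.00703) and day 24 (-0.57 ± 0.19, adjusted p = 0.0312).

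Late and middle days of HepG2 were set against each other directly. Between day 24 and day 10, 8 genes were higher and 10 lower (background 21.5%), and the total of 18 dropped to 11 without day 24 replicate 2. The balance was not stable, with 7 higher and 4 lower without that array, 8 and 6 on the deposited values and 8 and 8 with median scaling. CYP17A1, CYP1A1 and CYP3A5 were lower at day 24. CYP17A1 was at least 2.03-fold and CYP1A1 at least 2.10-fold lower, and CYP3A5 changed by -0.78 ± 0.15 (adjusted p = 0.000248). No test is read from the CYP17A1 and CYP1A1 differences, as day 10 was among the groups that admitted them and day 24 was not. Higher at day 24 were CYP3A43 (1.33 ± 0.18), CYP4F2 (1.20 ± 0.15), CYP2W1 (0.96 ± 0.21), CYP3A7 (0.81 ± 0.14) and CYP8B1 (0.80 ± 0.19). Of the CYP3A genes, CYP3A5 had its highest mean at day 10, CYP3A7 at day 17 and CYP3A43 at day 24.

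In SNU398 the P450 genes CYP4F11 and CYP26B1 were called higher and CYP2R1 lower on all 4 days, in comparisons that run across array sets. Limma called 4 higher and 5 lower at day 3 (background 30.8%), 10 and 4 at day 10 (background 32.4%), 6 and 3 at day 17 (background 31.6%) and 4 and 3 at day 24 (background 17.9%). The medians were -0.07, 0.05, 0.08 and -0.04 beside 0.01, 0.01, 0.01 and 0.00 over all probes. Without day 3 replicate 1 the day 3 total was 4, with 3 higher and 1 lower, without either day 10 array that of day 10 was 9, and without untreated replicate 2 that of day 17 was 5. Among all called probes 51.2%, 54.5%, 52.3% and 54.4% were higher, and with median scaling 69.3%, 71.1%, 69.2% and 78.3%, where the median of all probes lay up to 0.10 above 0. The P450 genes were then 5, 9, 6 and 5 higher and 3, 3, 1 and 2 lower. On the deposited values they were 1, 7, 6 and 4 higher and 5, 4, 8 and 3 lower, so the balance at days 3 and 17 turned with the scaling.

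CYP4F11, a fatty acid hydroxylase, read 6.59 and 6.71 untreated, 7.20 and 7.04 at day 3, 8.87 and 8.93 at day 10, 8.21 and 8.03 at day 17 and 7.84 and 7.88 at day 24. Untreated arrays were below background, and it was at least 1.10-fold, at least 3.80-fold, at least 2.22-fold and at least 1.85-fold higher (adjusted p = 3.97e-15 at day 10). The day 3 call did not hold without day 3 replicate 1 (adjusted p = 0.0501). Within the array set, day 10 exceeded day 3 by 1.78 ± 0.12 (adjusted p = 1.46e-12) and day 17 exceeded day 3 by 1.004 ± 0.12 (adjusted p = 8.38e-07). CYP26B1, the second gene called on all 4 days, read 9.52 and 9.60 untreated, 10.57 and 10.52 at day 3, 10.96 and 10.76 at day 10, 10.61 and 10.45 at day 17 and 10.36 and 10.10 at day 24. Its change was 0.98 ± 0.15, 1.30 ± 0.15, 0.97 ± 0.15 and 0.67 ± 0.15. The last was not called without day 24 replicate 1 (0.54, adjusted p = 0.0646). CYP1B1 read 8.44 and 8.48 untreated, 8.47 and 8.52 at day 3, 9.01 and 9.004 at day 10, 9.90 and 9.69 at day 17 and 8.66 and 9.003 at day 24. It was called at day 10 (0.54 ± 0.14) and day 17 (1.33 ± 0.14, adjusted p = 3.3e-08). Against day 3, in the same set, its day 17 level was higher by 1.30 ± 0.14 (adjusted p = 3.27e-07). CYP2E1 read 8.59 and 8.32 at day 10 against 7.66 and 7.26 untreated (0.99 ± 0.16), and 1.18 ± 0.16 (adjusted p = 1.77e-06) above day 3. CYP2F1, an enzyme of the lung, read 7.21 and 7.31 at day 3 and 7.08 and 7.19 at day 10 against 6.02 and 6.12 untreated (at least 1.22-fold and at least 1.12-fold). Those groups alone admitted it, so no test is read from these differences, and its other probe did not pass the background limit. CYP24A1 was above background in SNU398 on no day, with calls at days 3, 10 and 17 that have no size here. CYP2R1 changed by -0.43, -0.70, -0.52 and -0.41 on the 4 days (9.07 and 9.08 at day 10 against 9.73 and 9.83 untreated). Its day 3 call was lost without untreated replicate 2 (-0.38, adjusted p = 0.123), day 3 replicate 1 (-0.43, adjusted p = 0.0813) or day 3 replicate 2 (-0.44, adjusted p = 0.0619). That of day 17 was lost without untreated replicate 2 (-0.47, adjusted p = 0.0521) or day 17 replicate 2 (-0.37, adjusted p = 0.114). That of day 24 was lost without untreated replicate 1 (-0.46, adjusted p = 0.0882), untreated replicate 2 (-0.36, adjusted p = 0.214), day 24 replicate 1 (-0.37, adjusted p = 0.195) or day 24 replicate 2 (-0.45, adjusted p = 0.103). CYP27A1 was lower at day 17 (-0.48 ± 0.14) and day 24 (-0.71 ± 0.14). The first was not called without untreated replicate 1 (-0.38, adjusted p = 0.112) or day 17 replicate 1 (-0.34, adjusted p = 0.15). CYP4F2 was below background on every treated day and at least 1.14-fold lower at day 10. The call was lost without untreated replicate 1 (adjusted p = 0.232), untreated replicate 2 (adjusted p = 0.0648), day 10 replicate 1 (adjusted p = 0.15) or day 10 replicate 2 (adjusted p = 0.116). Its second probe was called higher at day 10 (0.67). No CYP3A gene was above background in SNU398 on any day. Of the 11 markers of other cell types, 1, 4, 4 and 4 were called higher at days 3, 10, 17 and 24. Lower calls numbered 0, 1, 0 and 0 (background 30.8%, 32.4%, 31.6% and 17.9% in either direction). Their part in these results was not tested.

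Within the array set, SNU398 at day 10 against day 3 gave 5 called P450 genes (background 31.6%), all higher, and at day 17 against day 3 it gave 4 (background 6.36%), 3 of them higher. CYP4F2 was higher than at day 3 and lower than untreated, which differs in sign, and it was below background on both days. Day 24 against day 3 called 2 higher and 2 lower (background 15.8%): CYP4V2 (0.92 ± 0.15) and CYP4F11 (0.74 ± 0.12) were higher, and CYP27A1 (-0.51 ± 0.14) and CYP2F1 (at least 1.22-fold) lower. Days 3 and 10 of SNU398 alone admitted CYP2F1, so no test is read from its difference. Without day 24 replicate 1 the total was 2.

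**Figure D3:**
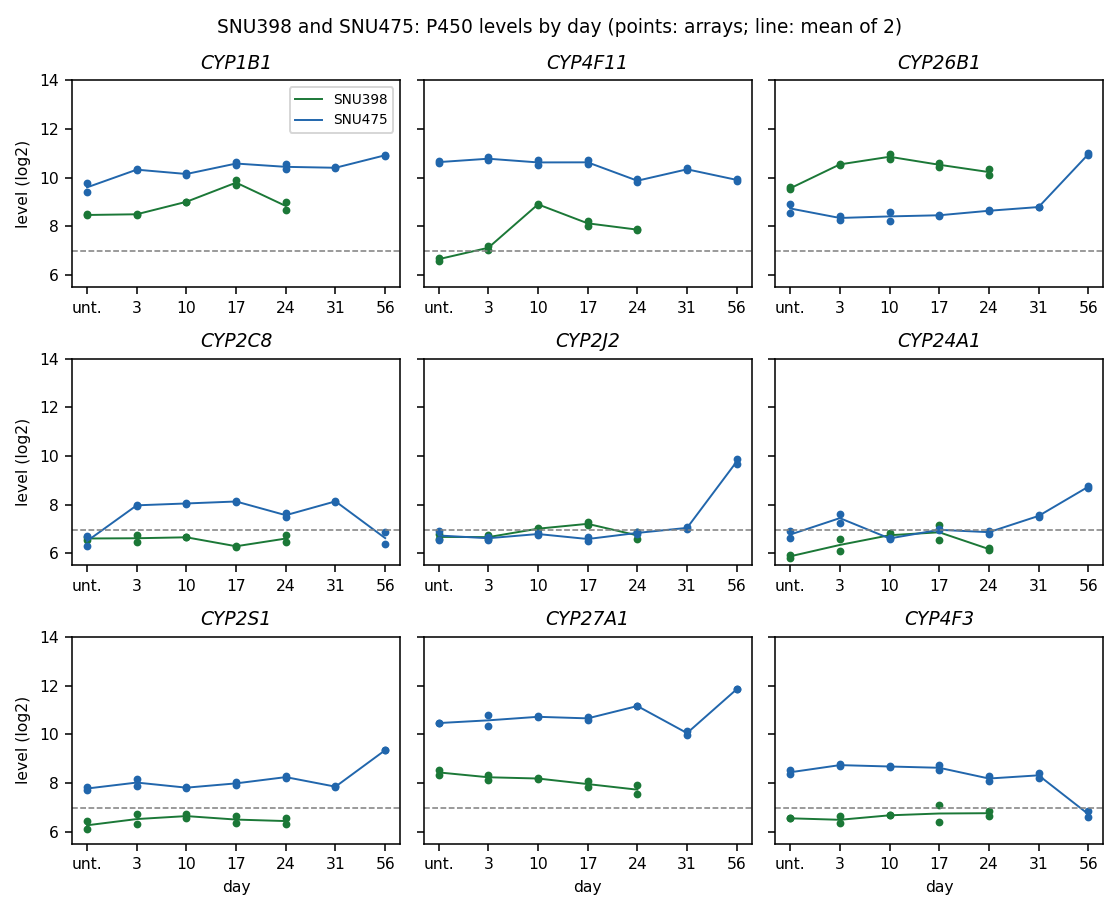
Normalized log2 level of 9 P450 genes by day in SNU398 and SNU475, untreated at the left (points are the 2 arrays of a group, lines join their means, and the dashed line is the background limit of 6.974). CYP4F11 peaks at day 10 in SNU398, and CYP2J2, CYP26B1, CYP24A1, CYP2S1 and CYP27A1 are highest at day 56 in SNU475, where CYP4F3 falls below the limit.

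In SNU475 CYP1A2, CYP1B1, CYP2C8, CYP24A1 and CYP27B1 were called higher at day 3, and those called at least 2-fold at day 56 included CYP2J2, CYP26B1, CYP24A1 and CYP2S1, higher, and CYP4F3 and CYP4F12, lower. Treated SNU475 groups alone admitted CYP1A2 and CYP2C8, which favoured their higher calls. At day 3, within 1 array set, 5 genes were called higher and 0 lower (background 3.19%), and the total dropped to 2 without untreated replicate 1 and to 3 without day 3 replicate 2. Calls numbered 9 higher and 0 lower at day 10 (background 18.2%), 6 and 0 at day 17 (background 12.7%), 10 and 3 at day 24 (background 31.4%), 6 and 0 at day 31 (background 12.8%) and 11 and 5 at day 56 (background 45.3%). Medians ran from 0.02 to 0.16, beside -0.05 to 0.01 over all probes. Without untreated replicate 1 the day 17 total was 3 and the day 31 total 2, and without day 17 replicate 2 that of day 17 was also 3. From day 10 on the split depended on the scaling: 45.1% to 56.6% of called probes were higher, 28.9% to 36.7% with median scaling and 7.37% to 21.5% on the deposited values, where the median of all probes ran from -0.22 to -0.19. On the deposited values the P450 genes were 4, 4, 8, 3 and 8 higher and 4, 5, 8, 7 and 7 lower at days 10, 17, 24, 31 and 56.

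CYP2C8, which oxidises paclitaxel and arachidonic acid, read 6.70 and 6.31 untreated, 7.99 and 7.95 at day 3, 8.09 and 8.01 at day 10, 8.09 and 8.17 at day 17, 7.49 and 7.64 at day 24, 8.15 and 8.12 at day 31 and 6.86 and 6.39 at day 56 in SNU475. The untreated and day 56 groups were not above background. CYP2C8 was at least 1.996-fold, at least 2.11-fold, at least 2.23-fold, at least 1.51-fold and at least 2.24-fold higher on the days between. Of the 17 groups those days alone admitted it, so no test is read from these differences. CYP1A2, the caffeine oxidase of adult liver, was not above background in untreated SNU475 and was at least 1.15-fold, at least 1.10-fold and at least 1.23-fold higher at days 3, 10 and 17. It was back below background from day 24 on. Days 3, 10 and 17 of SNU475 alone admitted CYP1A2, so no test is read from its differences either. CYP1B1 was called higher on all 6 days and read 9.42 and 9.78 untreated, 10.30 and 10.36 at day 3, 10.20 and 10.09 at day 10, 10.65 and 10.50 at day 17, 10.34 and 10.54 at day 24, 10.38 and 10.43 at day 31 and 10.95 and 10.89 at day 56. Its change ran from 0.55 ± 0.14 at day 10 to 1.32 ± 0.14 at day 56 (adjusted p = 1.08e-08). The day 3 call was lost without untreated replicate 1 (0.55, adjusted p = 0.124), and that of day 10 without untreated replicate 1 (0.37, adjusted p = 0.175) or day 10 replicate 1 (0.50, adjusted p = 0.0699). AHR, the receptor that induces CYP1 genes, was called lower at days 31 and 56 (-0.72 ± 0.14 and -0.48 ± 0.14). CYP24A1 was at least 1.39-fold higher at day 3, a call lost without untreated replicate 1 (adjusted p = 0.283) or day 3 replicate 2 (adjusted p = 0.291). CYP27B1 was at least 1.49-fold higher, a call lost without untreated replicate 1 (adjusted p = 0.22), day 3 replicate 1 (adjusted p = 0.102) or day 3 replicate 2 (adjusted p = 0.0725). CYP27B1 was also higher at day 24 (8.02 and 7.90 against 6.72 and 6.98 untreated, at least 1.97-fold, adjusted p = 5.76e-06). CYP2E1 was above background at days 10, 17, 24 and 56, at least 1.73-fold higher at day 56 (7.60 and 7.93 against 6.63 and 6.72 untreated).

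CYP2J2 was above background at days 31 and 56 of SNU475. It read 6.55 and 6.91 untreated, 6.55 and 6.69 at day 3, 6.76 and 6.83 at day 10, 6.50 and 6.67 at day 17, 6.81 and 6.87 at day 24, 7.10 and 6.99 at day 31 and 9.88 and 9.67 at day 56. It was at least 6.96-fold higher at day 56 than untreated (adjusted p = 4.45e-17), and against day 10, in the same array set, also at least 6.96-fold (adjusted p = 8.52e-17). The 250 bases before its start are shown because of this bound and hold 19 CG (RefSeq, GRCh38.p14, chr1:59926774-59927023, minus strand, 5′ to 3′, CG in capitals).
CYP2J2: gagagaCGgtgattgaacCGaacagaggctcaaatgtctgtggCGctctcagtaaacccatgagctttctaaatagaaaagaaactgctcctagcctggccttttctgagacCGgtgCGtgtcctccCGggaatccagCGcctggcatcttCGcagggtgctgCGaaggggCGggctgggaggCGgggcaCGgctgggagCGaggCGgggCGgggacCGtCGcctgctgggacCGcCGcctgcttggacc
CYP26B1 read 10.92 and 11.00 at day 56 against 8.93 and 8.54 untreated (2.23 ± 0.15, adjusted p = 8.39e-13) and 8.24 and 8.58 at day 10 (2.55 ± 0.15). CYP24A1 was at 8.69 and 8.78 against 6.62 and 6.92 (at least 3.39-fold, adjusted p = 5.29e-11). CYP2S1 read 9.34 and 9.35 at day 56 and 7.69 and 7.85 untreated (1.58 ± 0.14), and its second probe changed by 0.55, also called. CYP2S1 was thus higher in SNU475 at day 56 and, by its brighter probe alone, lower in HepG2, each against its own untreated cells. CYP27A1 read 11.84 and 11.86 at day 56 and 10.46 and 10.46 untreated (1.39 ± 0.14). Lower at day 56 were CYP4F3, with 6.83 and 6.61 against 8.36 and 8.52 untreated (at least 2.76-fold, adjusted p = 1.38e-09), and CYP4F12, with 6.96 and 7.12 against 8.56 and 8.35 (at least 2.66-fold, adjusted p = 7.21e-09). The second CYP4F3 probe changed by -0.53 against day 10 and by -0.48 against untreated cells, and the second of these was not called. CYP4F11 changed by -0.73 ± 0.12 at day 56 and by -0.76 ± 0.12 at day 24. Day 24 set against day 10, within 1 array set, gave 4 called genes (background 9.85%). CYP27A1 was higher there (0.44 ± 0.14) and CYP4F11 lower (-0.75 ± 0.12). CYP2F1 and CYP3A7 were also called lower, but neither was above background in any SNU475 group, so no size is given. Against day 10, 7 P450 genes were higher and 10 lower at day 56 (background 42.5%), a comparison within 1 array set. FOXA1, a factor of liver P450 genes, read 8.57 and 8.58 at day 56 against 11.86 and 11.97 untreated. Of the 11 markers of other cell types, 7 were above background at day 56 and 8 untreated, with mean levels of 10.06 and 9.37. Against untreated cells 4 of the 11 were called higher and 3 lower (background 45.3% in either direction). The mesenchymal genes COL1A1, COL1A2 and PDGFRB changed by 2.84, 3.73 and 3.42 and the macrophage gene CD68 by 0.46. KRT19 changed by -1.87, ACTA2, a further mesenchymal gene, by -0.68, and the keratin KRT7 was at least 1.38-fold lower. Their part in these results was not tested.

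The mean change over days 3, 10, 17 and 24 was compared between lines in the same model. Against SNU398, HepG2 had the higher change in 21 genes and the lower in 7 (background 33.5%), and against SNU475 in 14 and 6 (background 23.0%). SNU398 against SNU475 had 3 and 10 (background 33.3%), and 3 and 6 on the deposited values. A size is given below for genes above background in every group of the contrast, and for the others the call alone. Medians were 0.49, 0.29 and 0.00, beside -0.01, -0.01 and 0.01 over all probes. The change of CYP3A7 was called higher in HepG2 than in SNU398 and SNU475 (adjusted p = 1.55e-09 and 2.89e-10), and CYP3A7 was below background in both of the other lines on every day. CYP4F12 and CYP4F3 were above background in all these groups of HepG2 and SNU475, and the HepG2 change exceeded that of SNU475 by 1.64 ± 0.17 and 1.64 ± 0.19 (adjusted p = 2.02e-08 and 1.48e-07). CYP2R1, higher in HepG2, where untreated cells were below background, and lower in SNU398, was called between these lines (adjusted p = 5.11e-09). CYP27A1, with the same directions at days 17 and 24, differed by 1.01 ± 0.16 (adjusted p = 1.09e-05). CYP2S1, below background in HepG2 from day 10 on, was called the other way against SNU475 (adjusted p = 2.8e-08). So was CYP1B1 against both lines, and it was below background in every HepG2 group. The second CYP2S1 probe differed by -0.37 between HepG2 and SNU475, with no call. The change of CYP4F11 in SNU398, where untreated cells were below background, was called higher than that in HepG2 and in SNU475.

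At day 3 alone, where HepG2 and SNU475 each lie within 1 array set, 14 P450 genes differed (background 8.32%), of which 12 were also called over all 4 days. CYP4F12 differed by 1.02 ± 0.21 (adjusted p = 0.00241) and CYP2S1 by -1.04 ± 0.20 (adjusted p = 0.00103), both measured in all 4 groups. The second CYP2S1 probe changed by 0.02 in HepG2 and 0.32 in SNU475 at day 3, with no call in either line. CYP3A7 and CYP3A5 were called higher in HepG2 (adjusted p = 2.11e-06 and 0.00198) and CYP2C8 lower, each with untreated SNU475 below background. Treated SNU475 groups alone admitted CYP2C8, so no test is read from its call. The other line contrasts run across sets. Over all probes their split moved with the scaling. Higher calls made up 48.3% for HepG2 minus SNU398 and 33.2% with median scaling. They made up 49.8% for HepG2 minus SNU475, 62.5% with median scaling and 80.8% on the deposited values, and 51.3%, 73.4% and 77.6% for SNU398 minus SNU475. Under these settings the median of all probes moved by up to 0.16, and the P450 genes stayed at 18 to 21, 14 to 19 and 3 higher. Lower P450 calls ran from 6 to 7, from 5 to 6 and from 6 to 10.

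**Figure D4:**
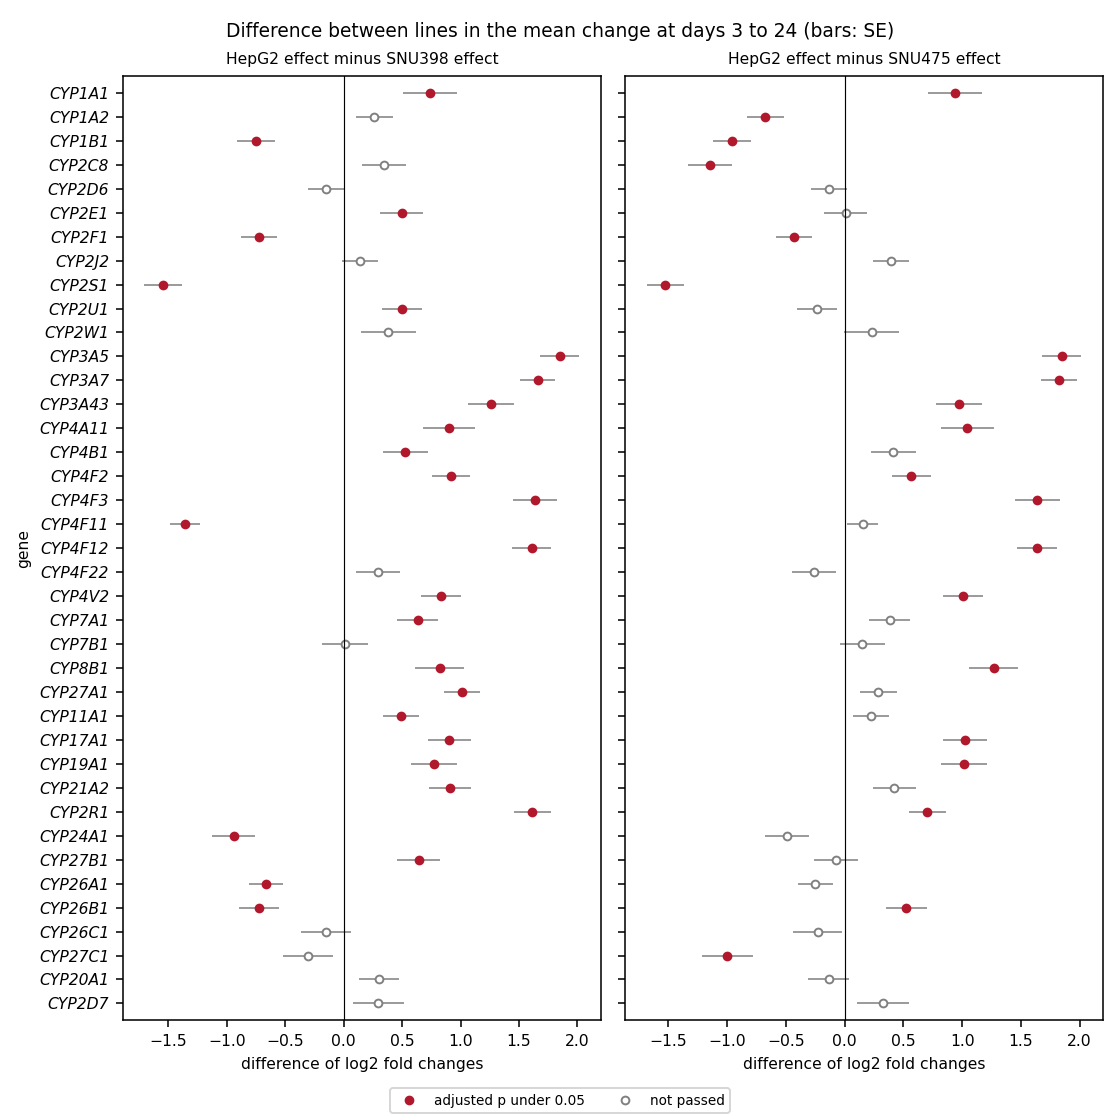
Difference between lines in the mean log2 change over days 3 to 24 for each of the 39 P450 genes (filled points have an adjusted p under 0.05, bars are standard errors), HepG2 minus SNU398 on the left and HepG2 minus SNU475 on the right. Points are fitted values, also where groups were below background, and of the genes measured in every group CYP27A1 lies at 1.01 on the left and CYP4F3 and CYP4F12 at 1.64 on the right.

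Genes that work with P450 enzymes were described by lists, and the members named are among the 3 with the largest called changes in a line at day 10 or 24. Of 7 electron donors in HepG2, 1 was called higher and 1 lower at day 10, a share near the 31.0% of all probes, and 0 and 0 at day 24 (median 0.10, -0.02 over all probes). POR, the reductase that serves microsomal P450 enzymes, read 12.07 and 11.90 at day 10 against 11.45 and 11.23 untreated (0.65 ± 0.14, adjusted p = 0.000417), and was lower at day 3 (-0.41 ± 0.14, adjusted p = 0.042). In SNU398 cytochrome b5, CYB5A, was called lower on all 4 days (-0.81, -1.13, -0.84 and -0.81). Heme genes were called lower in 6 of 11 in HepG2 at day 10 and higher in 0 (median -0.37), beside 14.6% and 16.4% of all probes (median 0.00). CPOX, coproporphyrinogen oxidase, read 9.70 and 9.54 against 10.84 and 11.00 untreated (-1.30 ± 0.13, adjusted p = 8.24e-09). BLVRA, biliverdin reductase, and ALAS1, the first enzyme of heme synthesis, changed by -0.66 ± 0.12 and -0.52 ± 0.19. At day 24, 2 heme genes were higher and 4 lower, beside 12.2% and 11.9% of all probes. In SNU475 at day 24 the heme oxygenase HMOX1 changed by -1.35 ± 0.14 and in SNU398 at day 10 by 1.35 ± 0.14.

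Regulators of P450 genes were higher in 4, 7, 8 and 8 of 16 in HepG2 at days 3, 10, 17 and 24 and lower in 1, 2, 1 and 0, with medians of 0.14, 0.18, 0.36 and 0.37. Over all probes 7.16%, 16.4%, 12.9% and 12.2% were higher, with medians of -0.01, 0.00, -0.01 and -0.02. NR1I3, the receptor CAR that induces CYP2B and CYP3A genes, read 7.62 and 7.72 at day 24 against 6.25 and 6.31 untreated, which was below background (at least 1.62-fold). RXRA, the partner of CAR and other nuclear receptors, read 11.86 and 11.90 against 10.94 and 10.92 (0.95 ± 0.15, adjusted p = 1.21e-05). PPARA, the receptor for fatty acids that induces CYP4A genes, changed by 0.91 ± 0.16 at day 24, and CEBPB, a liver-enriched factor, by 0.998 ± 0.16 at day 10. CAR was above background in neither SNU398 nor SNU475, so treated HepG2 groups alone admitted it. This favoured its higher call, and no test is read from that call. In SNU475 FOXA1 was lower at day 10 (-1.12 ± 0.12) and day 24 (-1.09 ± 0.12) while CEBPA was higher (0.98 ± 0.13 and 1.03 ± 0.13), and in SNU398 FOXA3 was higher (1.24 ± 0.14 and 1.28 ± 0.14). Conjugating enzymes, which act on P450 products, were higher in 5, 3, 9 and 7 of 15 in HepG2 on the 4 days and lower in 1, 0, 1 and 0. Their medians were -0.05, 0.18, 0.48 and 0.41, and the day 10 share lay near the 16.4% of all probes. The glucuronosyltransferase UGT2B4 read 9.30 and 9.13 at day 24 against 7.37 and 7.05 untreated (2.0001 ± 0.16, adjusted p = 1.37e-10), UGT2B17 changed by 1.11 ± 0.15 and the sulfotransferase SULT2A1 by 1.09 ± 0.18. In SNU475 UGT1A6 was higher at day 10 (1.96 ± 0.16) and day 24 (1.87 ± 0.16), while UGT1A1 was lower (-0.96 ± 0.20 and -2.03 ± 0.20).

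The upstream windows of P450 genes had a lower median CG count than all windows, and they varied. The sequence table held 51 windows of 300 bases for 38 of the 53 genes, 40 of them for 28 of the 39 measured genes. Their median was 5 CG, and 7 for the measured genes, beside 14 over 35116 windows of all genes. Of the 51 windows 21 held 10 or more CG, beside 56.4% of all windows. CYP19A1 alone had 7 of the windows, with 0 to 6 CG. TATAAA, searched on both strands, lay in 35.3% of P450 windows and in 11.5% of all windows, and GCGTG in 25.5% and 36.5%. Genes called at least 2-fold higher in HepG2 varied as well. CYP3A5, CYP3A7, CYP3A43, CYP17A1 and CYP4F3 held 2 or 3 CG, CYP21A2 held 7, CYP1A1 10 and CYP4V2 36. The windows of CYP19A1 held 0 to 6 and the 3 of CYP2R1 held 10, 16 and 28. A match of letters is a description and shows no binding, and 11 measured genes, CYP4F12 and CYP8B1 among them, have no window in the table.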

How the data were processed

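Total RNA of HepG2, SNU398 and SNU475 cells was labelled with biotin and hybridised to Illumina arrays, per the labels' protocols. The deposited values are linear intensities; how the authors normalized them is not given in these sources. Their array medians match within each of 3 sets of arrays and differ between sets. A further 36 signal columns of an unnormalized table are tied to samples by no label and were not used.

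The deposited intensities were corrected with normexp (offset 50), quantile normalized, and put on a log2 scale in limma 3.58.1 (R 4.3.3). A probe was tested if it had 1 gene symbol and exceeded 6.974 on both arrays of at least 1 group. That limit adds 1.645 times the spread below the mode (0.298) to the mode itself (6.484), both taken from the average of the sorted arrays. Probes were named from GEO's platform annotation, updated through RefSeq, where 30074 of 30113 probes with 1 symbol matched. One model over all 34 arrays had a mean per group (17 residual and 11.0 prior degrees of freedom), with moderated two-sided tests and Benjamini-Hochberg adjustment over the 20999 probes tested. The correlation between the 2 arrays of a group was 0.991 to 0.995. The procedure was tested on simulated data. Python 3.11.15 with pandas 2.3.3 read the promoter windows, and matplotlib 3.10.9 drew the figures.

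Where 1 of 2 groups was not above background, the bound divides the brighter group's level by that of the dim group, whose arrays count at the limit or at their own level if higher. The members and gene lists were chosen with earlier results of these data known. Values on each array are given for P450 genes called at a log2 change of 1 or more against untreated cells or above background in all 3 untreated lines. Other P450 genes are given by changes, ranges and counts, and of the other lists the 3 largest called changes in a line at day 10 or 24 may be named. Alternatives were the deposited values without correction, median scaling, other filters, 1 probe a gene, each line on its own, replicate number as a block, each array left out, and comparisons within an array set.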

Additional observations from a re-analysis of the deposited data

Results flagged for a closer look

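The following P450 genes had a mean change over days 3, 10, 17 and 24 with a fitted difference between lines of at least 2-fold, by a contrast of the 2 changes in the limma model (adjusted p under 0.05 for each). Values are fitted differences of log2 changes. Where a group was below background, as given for each contrast, they are no measured size. CYP3A43, CYP4A11 and CYP17A1 were admitted by treated HepG2 groups alone and CYP2C8 by treated SNU475 groups alone. No test is read from the differences of these genes.

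For HepG2 minus SNU398 they were CYP3A5 (1.85), CYP3A7 (1.66), CYP4F3 (1.64), CYP2R1 (1.61), CYP4F12 (1.61), CYP3A43 (1.26), CYP27A1 (1.01), CYP4F11 (-1.36) and CYP2S1 (-1.54). In SNU398, CYP3A5, CYP3A7, CYP3A43, CYP4F3, CYP4F12 and CYP2S1 were below background in every group. In HepG2, CYP2R1 and CYP3A43 were below background untreated and CYP2S1 from day 10 on, and CYP4F11 was below background in untreated SNU398. The second CYP2S1 probe gave -0.16 with no call.

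For HepG2 minus SNU475 they were CYP3A5 (1.85), CYP3A7 (1.83), CYP4F12 (1.64), CYP4F3 (1.64), CYP8B1 (1.27), CYP4A11 (1.04), CYP17A1 (1.02), CYP19A1 (1.02), CYP4V2 (1.01), CYP2C8 (-1.15) and CYP2S1 (-1.52). CYP4F12, CYP4F3 and CYP2S1 were above background in untreated cells of both lines, while CYP3A7, CYP8B1, CYP4A11, CYP17A1, CYP19A1 and CYP4V2 were below background in every SNU475 group and CYP3A5 at days 10 and 24 and untreated. CYP2S1 was below background in HepG2 from day 10 on, and its second probe gave -0.37 with no call. CYP2C8 was below background in every HepG2 group and in untreated SNU475.

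For SNU398 minus SNU475 they were CYP4F11 (1.51), CYP26B1 (1.25) and CYP2C8 (-1.49). CYP2C8 was below background in every SNU398 group. Contrasts with SNU398, and with SNU475 from day 10 on, run across array sets.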

How the results depend on the processing

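Counts of called P450 genes below are totals of both directions, and no called change against untreated cells reversed its sign where an alternative kept the groups compared. With 1 probe a gene, median scaling and each line on its own, every count stayed within 1.5 times its value. Under the strictest filter, probes above background on all 34 arrays, 4 P450 genes remained measured, and the counts were 1, 3, 3 and 2 in HepG2, 1, 2, 2 and 2 in SNU398 and 0, 1, 0, 2, 1 and 2 in SNU475 by day. They were 1, 1 and 3 for the later against the earlier day in HepG2, SNU398 and SNU475, 2 and 3 for untreated HepG2 against SNU398 and SNU475, and 3, 1 and 3 for the line contrasts HepG2 minus SNU398, HepG2 minus SNU475 and SNU398 minus SNU475. Fewer genes tested accounts for these low counts by construction. Without a filter the SNU398 day 10 count was 9. On the deposited values the SNU398 day 17 count was 14 and the SNU475 day 31 count 10, and the cause was not tested. Comparisons within an array set, chosen after seeing the data, gave 5 for SNU398 day 10 and 4 for day 17, each against day 3, and 4 for SNU475 day 24 against day 10 (background 9.85%). Of 176 called changes, 26 lost the call on the deposited values, 15 without a filter, 14 with median scaling and 14 with each line on its own.

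Leaving out 1 array gave counts of 10 to 12, 21 to 22, 19 to 23 and 19 to 20 in HepG2 by day, 4 to 7, 9 to 11, 5 to 8 and 5 to 6 in SNU398, and 2 to 5, 6 to 7, 3 to 5, 10 to 13, 2 to 5 and 12 to 14 in SNU475. The ranges were 11 to 16, 2 to 4 and 16 to 18 for the later against the earlier day, 19 to 21 and 21 to 22 for the untreated lines, and 21 to 28, 17 to 20 and 9 to 14 for the line contrasts. A group left with 1 array is assumed to vary like the others.

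Replicate numbers do not pair the samples: the correlation of deviations of same-numbered arrays ran from -0.10 to 0.18 in HepG2, -0.14 to 0.06 in SNU398 and -0.05 to 0.07 in SNU475. With replicate number as a block the counts were 25 in HepG2 at day 10 and day 17 and 11 in SNU398 at day 10, all counts stayed within 1.5 times, and 6 calls were lost. Dim signal left 14 of 53 P450 genes unmeasured.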
